A study of Mus musculus with 12 samples.

Results

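Elastic fibre and matrix glycoprotein genes of the vessel wall were examined in mouse aorta after the drug CM-695. They were taken as a list of 37 genes, namely 22 of the elastic fibre, 6 proteoglycan genes and 9 matricellular and adhesive glycoprotein genes, out of 22180 genes on the array, and matched by exact gene symbol. A probe set that names 1 gene only was available for 34 of the 37. Fbn1 and Efemp2 had none and were not analysed here, and Loxl2 was covered only by 2 probe sets that also name a second gene. The rule names genes by function. The 6 treated animals were female CD-1 mice, an outbred stock, given CM-695 intraperitoneally at 80 mg/kg both 2 h and 1 h before sacrifice. CM-695 inhibits HDAC6, a cytoplasmic deacetylase, and phosphodiesterase 9, which degrades cyclic GMP. The other 6 animals were female CD-1 mice given saline vehicle, according to the series design as 1 injection, and an unequal number of injections cannot be told apart from the drug. Each aorta, perfused with saline and frozen, was measured on its own array; the age of the mice is not given in the sources used here.

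Elastic fibres let large arteries stretch and recoil. Tropoelastin is laid onto a scaffold of fibrillin microfibrils, guided by fibulins and latent TGF-beta binding proteins and cross-linked by lysyl oxidases. Around them lie proteoglycans, which fill the space between fibres or coat collagen fibrils, and matricellular proteins, which tune how cells attach to the matrix. In the aorta these products come mainly from smooth muscle cells of the media and fibroblasts of the adventitia.

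Values are RMA log2 expression, 1 per probe set and mouse, and every difference is CM-695 minus vehicle on the log2 scale. Array medians lay between 4.69 and 4.74. All 11 measured smooth muscle markers and all 10 endothelial markers had a mean above the median of all probe sets (4.70); so did all 11 heart muscle and all 9 measured adipocyte markers, which are not genes of the vessel wall proper. In such bulk tissue, fewer cells of a type and less RNA per cell cannot be told apart. For arrays, the number of mice limits the precision.

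Most matrix genes were lower on average in CM-695 aortas, but no single gene passed the test across the array. The difference was below 0 for 30 of 34 genes and above 0 for Fbn2, Lox, Loxl4 and Thbs1. The share below 0 over all genes was 44.7%. Much of the spread between mice was shared by the 34 genes, so their signs are not separate observations. The median difference was -0.26 over the 34 genes, against 0.02 over all genes. Leaving out 1 mouse at a time put it between -0.35 (without CM-695 mouse 2) and -0.17 (without CM-695 mouse 3 or vehicle mouse 3), with 24 to 32 genes below 0. All 10 fibroblast markers, which include the collagen genes Col1a1, Col1a2 and Col3a1, were also below 0 (median -0.41). With their mean per mouse as a covariate the median of the 34 genes was 0.20, with 10 genes below 0. That median was -0.13 (23 below 0) with the smooth muscle marker mean and -0.44 (34 below 0) with the heart muscle marker mean. The cause of these shifts was not tested. With limma and Benjamini-Hochberg adjustment over 41345 probe sets, 0 of the 34 passed an adjusted p of 0.05 (lowest adjusted p = 0.347), while 0.167% of all genes passed. At an unadjusted p under 0.05 there were 5, each lower after CM-695: Vcan, Dpt, Sparc, Loxl3 and Fbln1. That is 14.7% of the 34 genes, against 9.1% of all genes in either direction; the share of all genes was 4.14% for lower and 4.96% for higher values alone. None of the 34 had every CM-695 mouse below every vehicle mouse or every one above (0.636% and 0.442% of all genes).

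**Figure D1:**
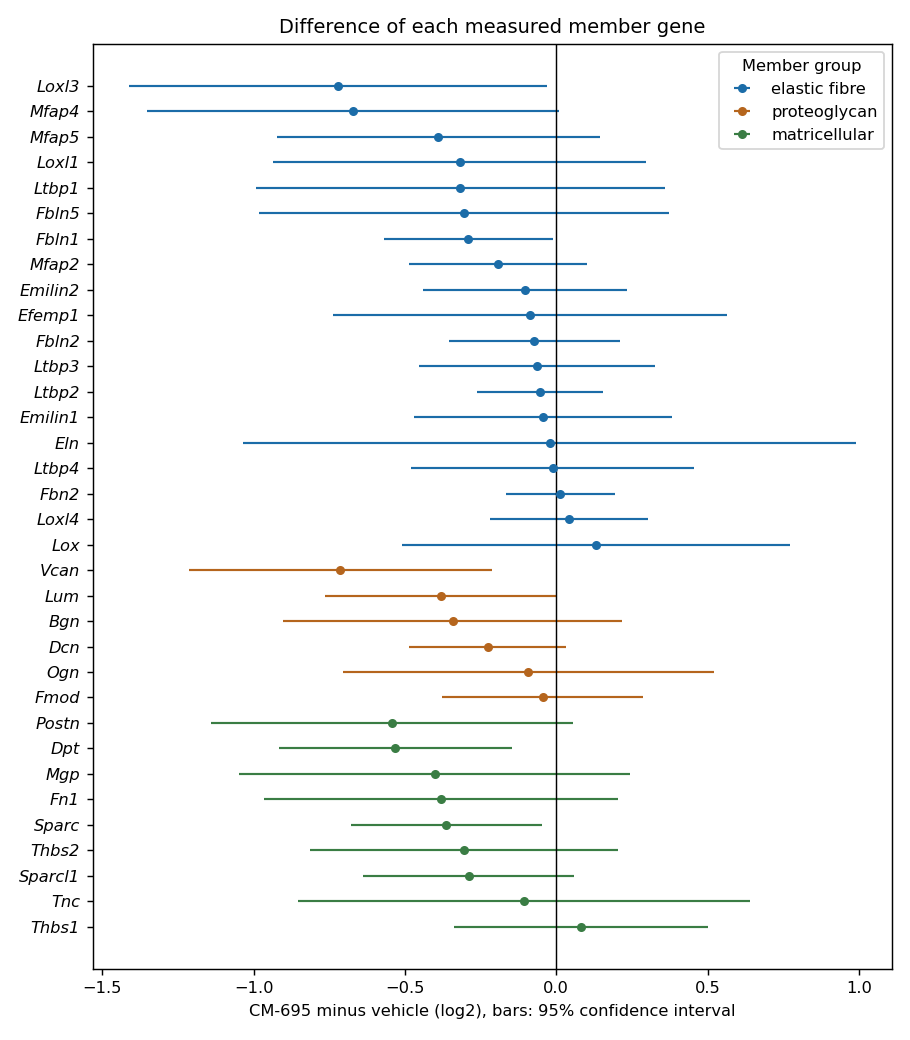
Difference of each of the 34 measured genes, CM-695 minus vehicle on the log2 scale (x axis), by member group (colour); points are estimates and bars 95% confidence intervals from limma, n = 6 mice per group. The points run from -0.72 (Loxl3) to 0.13 (Lox), and only the intervals of Loxl3, Fbln1, Vcan, Dpt and Sparc stay below 0.

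The sequence just before the start of transcription is shown for 4 of those 5 genes, to show the letters these lower genes do or do not have in common; Loxl3 is only named here. Each is the 250 bases before the RefSeq start (GRCm38.p6), 5′ to 3′ in the direction of the gene. They are chr13:89742513-89742762 on the minus strand for Vcan, chr1:164796413-164796662 on the plus strand for Dpt, chr11:55420081-55420330 on the minus strand for Sparc and chr15:85205699-85205948 on the plus strand for Fbln1. For Fbln1, which has 2 listed starts, the first listed is used. Vcan has 1 listed start, and its window lies inside the annotated span of the gene (chr13:89655309-89743027), not before its outer end. Capitals mark matches on either strand to TATAAA (the TATA box), GGGCGG (bound by SP1), CACGTG (the E-box of clock factors), TGANTCA (AP-1), CAGACA (an element of SMAD binding) and the CArG box bound by serum response factor.
Vcan: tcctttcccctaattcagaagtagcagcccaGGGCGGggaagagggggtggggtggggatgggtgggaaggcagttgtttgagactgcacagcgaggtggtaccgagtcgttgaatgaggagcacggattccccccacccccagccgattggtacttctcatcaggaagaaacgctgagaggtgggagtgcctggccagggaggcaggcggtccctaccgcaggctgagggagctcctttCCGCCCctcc
Dpt: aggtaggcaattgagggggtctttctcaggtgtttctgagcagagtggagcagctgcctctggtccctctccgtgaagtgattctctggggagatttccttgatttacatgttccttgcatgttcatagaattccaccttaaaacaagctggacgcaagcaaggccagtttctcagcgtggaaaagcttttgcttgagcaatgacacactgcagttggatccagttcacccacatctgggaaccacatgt
Sparc: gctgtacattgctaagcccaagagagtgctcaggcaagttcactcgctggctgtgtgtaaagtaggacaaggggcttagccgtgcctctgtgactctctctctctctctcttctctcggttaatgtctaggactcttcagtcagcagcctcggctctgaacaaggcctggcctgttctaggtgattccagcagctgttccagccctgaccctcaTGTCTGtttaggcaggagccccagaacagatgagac
Fbln1: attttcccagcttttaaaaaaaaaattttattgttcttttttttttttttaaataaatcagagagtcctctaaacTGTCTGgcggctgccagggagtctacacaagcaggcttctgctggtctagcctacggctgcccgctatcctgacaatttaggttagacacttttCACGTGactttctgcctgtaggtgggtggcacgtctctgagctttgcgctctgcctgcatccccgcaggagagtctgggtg

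No motif was held by all 4. Vcan had GGGCGG starting 219 and 10 bases before its listed start, the nearer one on the opposite strand. Sparc had CAGACA 36 bases before it, on the opposite strand. Fbln1 had CACGTG 81 bases and CAGACA, on the opposite strand, 175 bases before it, and in Dpt none of the 6 was matched. Among the 21 measured genes with an entry, 10 (47.6%) held GGGCGG, against 32.9% of 27025 promoters in the table. CAGACA was held by 4 (19.0%, against 17.1%), TATAAA by 3 (14.3%, against 13.0%), CACGTG by 1 (4.76%, against 6.05%), TGANTCA by 1 (4.76%, against 6.87%) and the CArG box by 0 (against 1.40%). A match describes letters and is no evidence of binding.

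Of the 5 measured genes for elastin and microfibrils, 4 had estimates below 0 (median -0.19), and none passed the test. Eln, which encodes tropoelastin, measured 9.19, 11.49, 8.39, 9.79, 9.72 and 10.31 in CM-695 mice 1 to 6, and 9.65, 10.34, 10.60, 10.47, 8.52 and 9.44 in vehicle mice 1 to 6. The treated range enclosed the vehicle range: CM-695 mouse 2 held the highest value of all 12 and CM-695 mouse 3 the lowest. Its difference was -0.02 (SE 0.47, 95% confidence interval -1.03 to 0.99, adjusted p = 0.993), an interval wide enough to hold a 2-fold fall and nearly a 2-fold rise. Mfap4, a microfibril-associated glycoprotein that binds elastin, ran from 6.66 through a median of 7.40 to 8.78 after CM-695, and from 7.67 through 8.28 to 8.58 after vehicle. Of the treated mice 4 were below all vehicle mice, while mouse 2 was above them all, and the difference was -0.67 (SE 0.32, limma adjusted p = 0.552). Mfap5, a microfibril glycoprotein, differed by -0.39 (SE 0.25) and its relative Mfap2 by -0.19 (SE 0.14). Fbn2, a fibrillin made mainly in development, was dim, with means of 4.19 ± 0.10 for the CM-695 mice and 4.18 ± 0.10 for the vehicle mice (SD, n = 6 each), below the median of all probe sets, and a value this low does not separate weak expression from none.

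Fibulins and emilins, which link elastin to microfibrils and cells, all had estimates below 0, from -0.30 to -0.04. Fbln1, a fibulin found in elastic fibres and basement membranes, measured 7.60, 7.82, 7.63, 7.64, 7.59 and 7.47 in CM-695 mice 1 to 6, and 7.36, 7.87, 8.05, 7.93, 8.20 and 8.09 in vehicle mice 1 to 6. All 6 treated mice lay below the vehicle median, yet vehicle mouse 1 was the lowest of the 12. The difference was -0.29 (SE 0.13, limma adjusted p = 0.525), and the unadjusted p stayed under 0.05 in 2 of 12 fits that each left out 1 mouse. Fbln5, which is required for elastic fibre assembly in mice, ran from 8.14 through a median of 8.76 to 9.96 after CM-695, and from 8.54 through 9.20 to 9.85 after vehicle. CM-695 mice 1 and 3 were below every vehicle mouse and mouse 2 was above them all, with a difference of -0.30 (SE 0.31). Fbln2, Emilin1, which anchors smooth muscle cells to elastic fibres, and Emilin2 differed by -0.07 (SE 0.13), -0.04 (SE 0.20) and -0.10 (SE 0.16). Efemp1, also called fibulin-3, differed by -0.09 (SE 0.30), and here CM-695 mouse 2 was the lowest mouse of the 12 at 6.64.

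The lysyl oxidases, copper enzymes that cross-link elastin and collagen, did not share a direction. Loxl3 measured 6.72, 8.44, 6.74, 7.22, 6.67 and 7.43 in CM-695 mice 1 to 6, and 7.63, 8.14, 8.28, 8.75, 7.21 and 7.52 in vehicle mice 1 to 6. CM-695 mice 1, 3 and 5 were below every vehicle mouse and mouse 2 was among the highest. The difference of -0.72 (SE 0.32, limma adjusted p = 0.523) was the lowest among the 34 genes; without CM-695 mouse 2 it was -0.97 (SE 0.26, adjusted p = 0.197). Lox, the main cross-linking enzyme of elastin in the aorta, ran from 7.05 through a median of 7.80 to 8.89 after CM-695, and from 6.99 through 7.69 to 8.33 after vehicle. It differed by 0.13 (SE 0.30, 95% confidence interval -0.51 to 0.77), and by -0.08 (SE 0.25) without CM-695 mouse 2. Loxl1, which maintains elastic fibres in adult tissue, differed by -0.32 (SE 0.29) and Loxl4 by 0.04 (SE 0.12).

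The latent TGF-beta binding proteins gave the smallest median of the elastic fibre roles, -0.06 over 4 genes. Ltbp1, which stores latent TGF-beta on microfibrils, ran from 7.45 through a median of 8.14 to 9.34 after CM-695, and from 7.88 through 8.53 to 9.26 after vehicle. Of the treated mice 3 were below every vehicle mouse and mouse 2 was above them all, for a difference of -0.32 (SE 0.31, adjusted p = 0.803). Ltbp4, which guides elastin assembly, differed by -0.01 (SE 0.22). Ltbp3, another carrier of latent TGF-beta, and Ltbp2, a microfibril protein, differed by -0.06 (SE 0.18) and -0.05 (SE 0.097). For Ltbp2 the 95% confidence interval of -0.26 to 0.15 leaves room only for small differences. Over all 19 measured elastic fibre genes, 16 were below 0 and the median was -0.09. That median depended on single mice: it was -0.018 without vehicle mouse 3, -0.22 without CM-695 mouse 2, -0.20 without vehicle mouse 1, -0.15 without vehicle mouse 4 and -0.14 without CM-695 mouse 1.

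All 6 proteoglycan genes had estimates below 0, with a median of -0.28, and versican had the smallest p of the 34 genes. Vcan encodes versican, a large chondroitin sulfate proteoglycan that binds hyaluronan. It measured 5.73, 7.08, 5.56, 6.69, 6.41 and 6.56 in CM-695 mice 1 to 6, and 6.75, 7.14, 7.32, 7.16, 6.78 and 7.16 in vehicle mice 1 to 6. Every treated mouse except mouse 2 was below every vehicle mouse. The CM-695 mean was 6.34 ± 0.59 and the vehicle mean 7.05 ± 0.23 (SD, n = 6 each). This is 0.610 times the vehicle level, a log2 difference of -0.71 (SE 0.23, limma adjusted p = 0.347). The unadjusted p stayed under 0.05 in 12 of 12 fits without 1 mouse, where the difference ran from -0.86 to -0.56; the adjusted p was above 0.05 in all of them. With the fibroblast marker mean as a covariate, the Vcan difference was -0.19 (SE 0.24).

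Small leucine-rich proteoglycans bind collagen fibrils and set their diameter. Lum, lumican, ran from 7.05 through a median of 7.49 to 7.87 after CM-695, and from 7.39 through 7.92 to 8.18 after vehicle. All 6 treated mice were below the vehicle median, and the difference was -0.38 (SE 0.18, limma adjusted p = 0.551). Dcn, decorin, ran from 10.84 through 11.17 to 11.28 after CM-695, and from 10.88 through 11.40 to 11.53 after vehicle. Again all 6 treated mice were below the vehicle median; vehicle mouse 1 stood apart at the low end, and the difference was -0.23 (SE 0.12, adjusted p = 0.604). Bgn, biglycan, ran from 11.62 through 12.02 to 13.22 after CM-695, and from 11.97 through 12.56 to 12.92 after vehicle, a difference of -0.34 (SE 0.26). A second Bgn probe set gave -0.17. Fmod, fibromodulin, and Ogn, osteoglycin, differed by -0.05 (SE 0.15) and -0.09 (SE 0.28), and a second Fmod probe set also gave -0.05.

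Matricellular and adhesive glycoproteins had the lowest median of the 3 groups, -0.36 over 9 genes, of which 8 were below 0. Without 1 mouse it ran from -0.45 to -0.25, against -0.39 to -0.23 for the proteoglycan genes. The order depended on the fit. With the smooth muscle marker mean as a covariate the medians were -0.19 and -0.20. They were 0.29 and 0.13 with the fibroblast mean, and -0.65 and -0.38 with the heart muscle mean. Dpt encodes dermatopontin, a small fibroblast product that binds decorin and promotes collagen fibril formation. It measured 9.22, 9.15, 9.17, 9.42, 9.51 and 8.97 in CM-695 mice 1 to 6, and 9.05, 9.66, 10.31, 9.99, 9.70 and 9.94 in vehicle mice 1 to 6. All treated mice were below vehicle mice 2 to 6, and vehicle mouse 1 lay inside the treated range. The CM-695 mean was 9.24 ± 0.20 and the vehicle mean 9.77 ± 0.43 (SD, n = 6 each). This is 0.692 times the vehicle level, a log2 difference of -0.53 (SE 0.18, limma adjusted p = 0.364). With Vcan it was one of only 2 genes of the list whose unadjusted p stayed under 0.05 in 12 of 12 fits without 1 mouse. With the fibroblast marker mean as a covariate, the Dpt difference was -0.06 (SE 0.15). Without vehicle mouse 1 the Dpt difference was -0.68 (adjusted p = 0.117), the lowest adjusted p of any of the 34 genes under any alternative run.

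Sparc, a collagen-binding glycoprotein that takes part in collagen assembly, measured 10.29, 10.76, 10.16, 10.12, 10.32 and 10.40 in CM-695 mice 1 to 6, and 10.50, 10.81, 11.05, 11.01, 10.35 and 10.51 in vehicle mice 1 to 6. CM-695 mice 1, 3, 4 and 5 were below every vehicle mouse, and the difference was -0.36 (SE 0.15, limma adjusted p = 0.471). Its relative Sparcl1 differed by -0.29 (SE 0.16). Postn, periostin, a matrix protein of activated fibroblasts and smooth muscle, ran from 9.20 through a median of 9.68 to 10.57 after CM-695, and from 9.60 through 10.25 to 10.89 after vehicle. The ranges overlapped, with a difference of -0.54 (SE 0.28, adjusted p = 0.586).

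Mgp, matrix Gla protein, which keeps arteries from calcifying, ran from 10.73 through a median of 11.27 to 12.36 after CM-695, and from 11.16 through 11.61 to 12.49 after vehicle, a difference of -0.40 (SE 0.30). Fn1, fibronectin, ran from 9.93 through 10.27 to 11.18 after CM-695, and from 10.03 through 10.72 to 11.38 after vehicle, a difference of -0.38 (SE 0.27). Tnc, tenascin-C, which is induced by injury and strain, ran from 5.88 through 6.76 to 8.02 after CM-695, and from 6.28 through 6.95 to 7.93 after vehicle, a difference of -0.11 (SE 0.35). None of these 3 separated the groups. Thbs1 and Thbs2 encode thrombospondins, of which thrombospondin-1 is also released by platelets and can activate latent TGF-beta. Thbs1 ran from 6.43 through 6.72 to 6.84 after CM-695, and from 5.73 through 6.70 to 7.05 after vehicle. All its treated values lay inside the vehicle range, with a difference of 0.08 (SE 0.19), while Thbs2 differed by -0.30 (SE 0.24). Platelet markers were above 0 for 6 of 7 measured genes. Of these markers 3 had an unadjusted p under 0.05 (42.9%, against 9.1% of all genes) and 0 passed the adjusted threshold. Their mean ran from 5.18 to 5.58 after CM-695 and from 4.99 to 5.38 after vehicle; their part in the Thbs1 values was not tested.

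**Figure D2:**
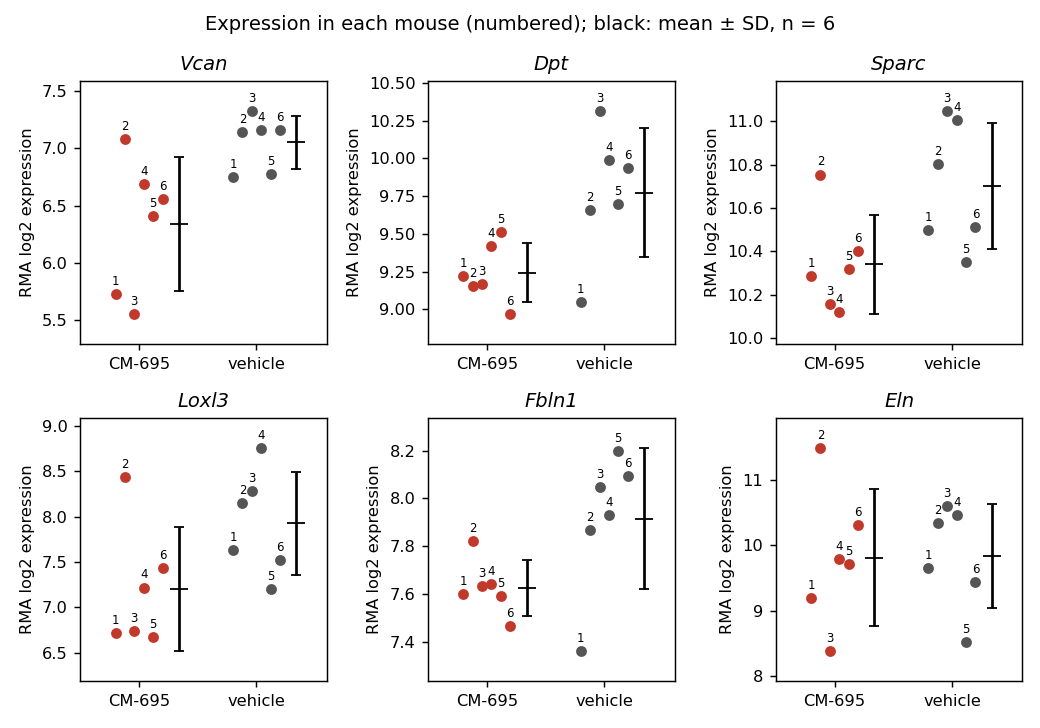
RMA log2 expression (y axis) of Vcan, Dpt, Sparc, Loxl3, Fbln1 and Eln in each of 6 CM-695 and 6 vehicle mice, with the mouse number beside each point and the group mean ± SD in black. CM-695 mouse 2 stands at the top of its group for all but Dpt, and vehicle mouse 1 at the bottom of its group for Vcan, Dpt and Fbln1.

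Mice of the same group differed more in these genes than in most others. The median SD within a group was 0.43 over the 34 genes, against 0.21 over all genes. It was 0.93 for Eln, larger than for 99.9% of genes, and 0.10 for Fbn2. All of the 34 but Fbn2 were brighter than the median of all probe sets, and the spread was not compared with that of equally bright genes. The spread was shared. CM-695 mouse 2 was the highest treated mouse for 26 of 34 genes (76.5%, against 23.6% of all genes), and CM-695 mouse 3 the lowest for 17 (50%, against 15.3%). Among vehicle mice, mouse 3 was highest for 22 (64.7%, against 16.4%), and mouse 1 lowest for 20 (58.8%, against 19.4%). The mean over the 34 genes was 7.88, 8.75, 7.74, 8.18, 8.03 and 8.25 in CM-695 mice 1 to 6, and 7.96, 8.47, 8.80, 8.65, 8.09 and 8.29 in vehicle mice 1 to 6. The 12 means thus overlapped widely, with 2 treated mice below the lowest vehicle mouse.

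The 8 genes for which another treated mouse stood highest were Fbn2, Efemp1, Emilin2, Loxl4, Ltbp2, Dcn, Thbs1 and Dpt. For Efemp1, Emilin2 and Dcn, CM-695 mouse 2 was the lowest treated mouse instead. Leaving out that mouse moved the median of the other 26 genes to -0.45, against -0.30 with all mice, and that of the 8 to -0.02, against -0.07. These sets were formed from the values and carry no test. Because CM-695 mouse 2 was the highest treated mouse for 26 of 34 genes, leaving it out lowers their treated means by construction. The counts without it are a description only. Without CM-695 mouse 2, 15 of 34 genes had an unadjusted p under 0.05, against 5 with all mice, and 0 passed the adjusted threshold (lowest adjusted p = 0.152). This is 44.1% of the 34 genes, against 12.1% of all genes in the same fit, where with all mice the shares were 14.7% and 9.1%. There were 10 without both CM-695 mice 2 and 3 (29.4%, against 9.11% of all genes in that fit), and 9 without vehicle mouse 1 (26.5%, against 9.72%). There were 3 (8.82%) without CM-695 mouse 1, CM-695 mouse 4 or vehicle mouse 2, against 7.86%, 8.78% and 7.72% of all genes. Only 2, Vcan and Dpt (5.88%), were left without CM-695 mouse 3, vehicle mouse 3 or vehicle mouse 4. The shares of all genes in those fits were higher, at 7.46%, 8.17% and 7.71%.

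**Figure D3:**
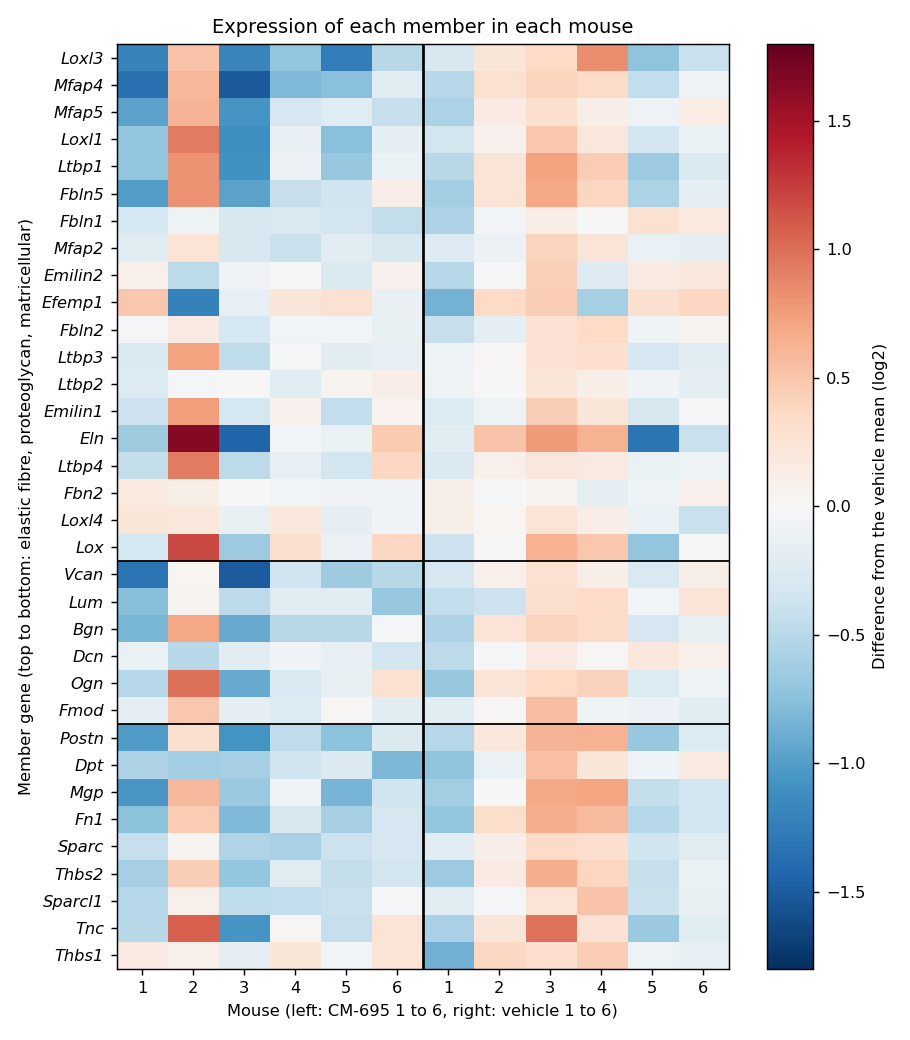
Expression of the 34 genes (rows, by group and then by difference) in each mouse (columns, CM-695 left and vehicle right), as the log2 difference from the mean of the 6 vehicle mice, red higher and blue lower. The column of CM-695 mouse 2 is red for most rows and that of CM-695 mouse 3 blue for most, while vehicle mice 3 and 4 are mostly red and vehicle mouse 1 mostly blue.

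Cell type markers were set beside the matrix values of each mouse, and no correlation was computed. Over all genes, 44.7% were below 0 and 9.1% had an unadjusted p under 0.05. The smooth muscle marker mean was 8.46, 10.31, 8.32, 9.08, 8.53 and 9.34 in CM-695 mice 1 to 6, and 8.96, 9.70, 9.61, 9.72, 8.80 and 8.79 in vehicle mice 1 to 6. Mouse 2 was again the highest and mouse 3 the lowest treated mouse. Of 11 measured smooth muscle markers, 10 were below 0 (median -0.27, -0.54 without CM-695 mouse 2 and -0.13 without CM-695 mouse 3), 0 had an unadjusted p under 0.05 and 0 passed the adjusted threshold. The fibroblast marker mean was 7.62, 7.89, 7.44, 7.90, 7.88 and 7.57 in CM-695 mice 1 to 6. In vehicle mice 1 to 6 it was 7.72, 8.07, 8.43, 8.36, 7.92 and 8.19. Here CM-695 mouse 4 was the highest treated mouse, just above mouse 2, and mouse 6 was lower than all but mouse 3. All 10 fibroblast markers were below 0 (median -0.41), 5 of them (50%) at an unadjusted p under 0.05 and 0 past the adjusted threshold. Scara5 (-0.42, SE 0.13) and Pi16 (-0.46, SE 0.18) had the smallest p; 3 of the 10 are collagen genes, so this list is partly matrix itself. Heart muscle markers had means from 6.08 to 8.31 after CM-695 and from 7.21 to 9.16 after vehicle, with 11 of 11 below 0 (median -1.67). Of these, 9 (81.8%) had an unadjusted p under 0.05 and 0 passed the adjusted threshold. Lymphocyte markers lay the other way: 6 of 7 measured were above 0 (median 0.19). At an unadjusted p under 0.05, 3 were higher and 1 lower (57.1% of them), and 0 passed the adjusted threshold. The part of these cells in the matrix values was not tested. The fits that follow cannot test it, because the marker means used as covariates also differed between the groups. The fibroblast mean averaged 7.72 after CM-695 and 8.11 after vehicle, and the heart muscle mean 7.16 and 8.46. Such a fit cannot tell cell content apart from treatment.

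With the fibroblast mean of each mouse as a covariate, the median difference of the 34 genes was 0.20, against -0.26 without it, and 10 genes were below 0. Under this fit Sparc differed by -0.09 (SE 0.17), Loxl3 by -0.15 (SE 0.38) and Fbln1 by -0.09 (SE 0.16). With the smooth muscle mean as covariate, the median was -0.13, with 23 genes below 0. There Vcan differed by -0.56 (SE 0.15, adjusted p = 0.191), Loxl3 by -0.47 (SE 0.12, adjusted p = 0.141) and Eln by 0.33 (SE 0.20, adjusted p = 0.604). With the heart muscle mean as covariate, all 34 genes were below 0, with a median of -0.44. No gene of the list passed the adjusted threshold in any of these fits.

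**Figure D4:**
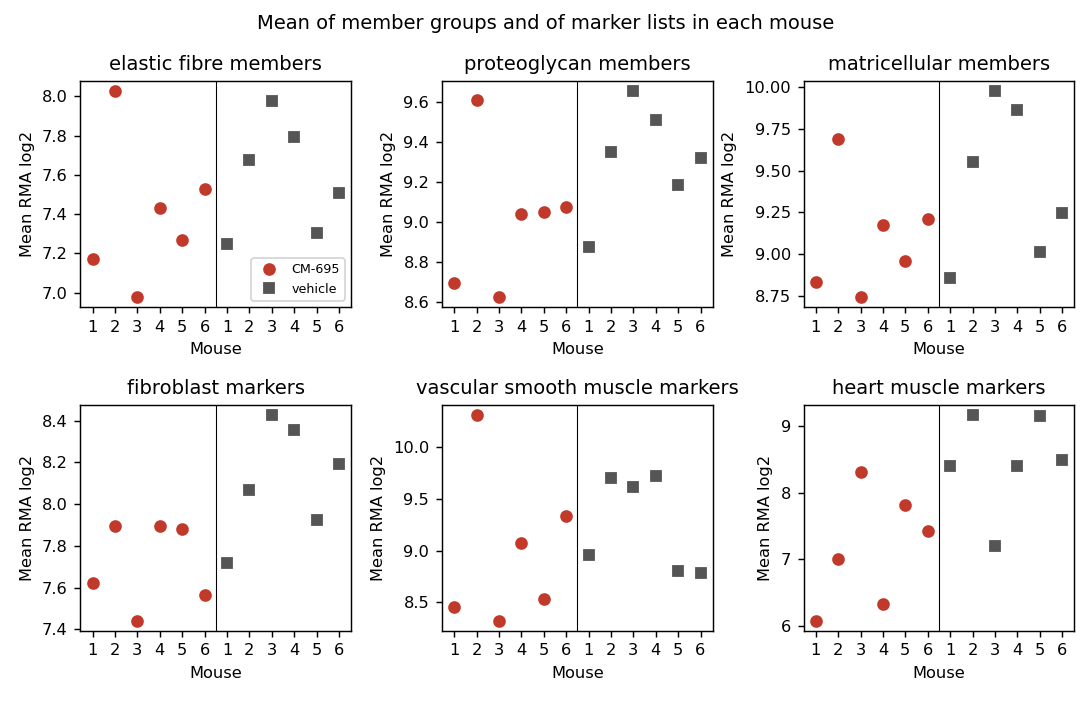
Mean RMA log2 expression (y axis) of the 3 member groups (top) and of fibroblast, smooth muscle and heart muscle markers (bottom) in each mouse (x axis, CM-695 1 to 6 left in red, vehicle 1 to 6 right in grey). In all 3 member groups CM-695 mouse 2 is highest and mouse 3 lowest among treated mice, as in the smooth muscle panel; in the heart muscle panel mouse 3 is the highest of them.

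Genes that work with the matrix list mostly lay slightly below 0, and none passed the adjusted threshold. Over all genes 44.7% lay below 0, and 9.1% had an unadjusted p under 0.05 (4.14% lower and 4.96% higher). The list medians depended on single mice. Without 1 mouse they ran from -0.23 to -0.016 for the TGF-beta list and from -0.20 to -0.031 for the other proteoglycans. They ran from -0.20 to -0.093 for the other matricellular genes and from -0.17 to -0.055 for the receptors, and from -0.25 to -0.18 for the other elastic fibre genes. In each of these lists the lowest median came without CM-695 mouse 2. The highest came without vehicle mouse 3 for the TGF-beta, other proteoglycan and other matricellular lists. It came without CM-695 mouse 3 for the receptors and without vehicle mouse 2 for the other elastic fibre genes. Of 19 measured TGF-beta ligands, receptors and SMADs, 16 were below 0 (median -0.11). At an unadjusted p under 0.05, 1 was higher and 1 lower, 10.5% of the list. The lower one was Tgfbr3, the betaglycan co-receptor, at -0.46 (SE 0.097, limma adjusted p = 0.109). The other was Tgfbr2, the type II receptor, at 0.24 (SE 0.11), and Tgfbr1, the type I receptor, differed by -0.40 (SE 0.19). Of 14 other elastic fibre and microfibril genes, 13 were below 0 (median -0.19) and 3 were lower at that p, 21.4% of the list. Adamtsl2, which binds fibrillin microfibrils, differed by -0.74 (SE 0.15, limma adjusted p = 0.0983), the closest to the threshold among these lists. Bmp1, a protease that processes procollagen and prolysyl oxidase, differed by -0.47 (SE 0.16), and Pcolce, which enhances its action on procollagen, by -0.31 (SE 0.12).

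Among 27 other proteoglycan and hyaluronan genes, 20 were below 0 (median -0.10). At an unadjusted p under 0.05, 4 were lower and 1 higher, 18.5% of the list against 9.1% of all genes. Podn, a small leucine-rich protein, differed by -0.46 (SE 0.10, limma adjusted p = 0.137), the cell-surface proteoglycan Sdc4 by -0.80 (SE 0.20, adjusted p = 0.178) and Ncan, neurocan, by 1.10 (SE 0.31, adjusted p = 0.255). Of 27 other matricellular and adhesive glycoproteins, 19 were below 0 (median -0.16), with 1 lower and 1 higher at that p (7.41% of the list). Cilp differed by -0.67 (SE 0.22), Vwa1 by 0.21 (SE 0.094) and Srpx2 by -0.49 (SE 0.23). Of 19 matrix receptors, 15 were below 0 (median -0.10) and 0 had an unadjusted p under 0.05; Dag1, dystroglycan, differed by 0.18 (SE 0.088), the integrin subunit Itgav by -0.21 (SE 0.13) and the collagen receptor Ddr2 by -0.32 (SE 0.26).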

How the data were processed

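Gene expression was measured in aortic tissue of 12 mice, 1 Affymetrix mouse gene array per mouse, 6 given CM-695 and 6 given vehicle. The authors deposited log2 expression values per probe set, made with RMA per the submitters' processing notes; the software version is not given in the sources used here. RMA normalizes across arrays and carries no detection calls. Names came from GEO's annotation of the platform (1 symbol for 23521 of 41345, several for 1814, none for 16010). Where a gene had several single-symbol probe sets, the brightest on average stood for it.

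The test was limma's (version 3.58.1, under R 4.3.3; lmFit and eBayes with intercept and group, two-sided) on all probe sets, with Benjamini-Hochberg adjustment over all 41345 and a threshold of 0.05; the series states no model. Marker and partner lists (TGF-beta, other matrix genes, receptors) were described by counts and medians, and lists of macrophage, lymphocyte, Schwann cell and mesothelial markers (medians 0.01, 0.19, 0.11 and -0.01) and of endothelial and adipocyte markers (0.04 and 0.02) were run as well. The list, the groups and the alternatives were chosen with earlier results of these data known. All measured members are named; values by mouse, or the lowest, median and highest, are given for those with an unadjusted p under 0.05 and for preset representatives; Mfap4 and Lum were added after their values were seen. Up to 3 genes of each partner list with the smallest p are named. Alternatives were a replicate block, a filter on dim probe sets, repeated quantile normalization, median centring, array weights, eBayes with trend and robust, another probe set per gene, 3 marker covariates, leaving out each mouse, and leaving out CM-695 mice 2 and 3. Protein sequences were not analysed here.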

Additional observations from a re-analysis of the deposited data

Results flagged for a closer look

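Among 68 groups of 6 mice (34 genes in each of 2 treatments), 6 had a mouse set far apart from the other 5 by Dixon's criterion. Chance meets this criterion in about 1 of 20 separate groups. The 68 groups are not separate, because all genes come from the same mice and 1 unusual mouse can be flagged repeatedly. Of the 6 flags, 4 were CM-695 mouse 2. It stood high for Mfap2 at 5.95 (the other treated mice 5.31 to 5.51), for Ltbp3 at 8.85 (7.67 to 8.08) and for Fmod at 7.18 (6.44 to 6.70), and low for Efemp1 at 6.64 (7.72 to 8.35). Vehicle mouse 3 stood high for Fmod at 7.24 (the other vehicle mice 6.48 to 6.72). Vehicle mouse 1 stood low for Dcn at 10.9 (11.3 to 11.5).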

How the results depend on the processing

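Across 23 alternatives, 0 of the 34 genes passed the adjusted threshold (lowest adjusted p = 0.117). The replicate numbers are not stated to pair the mice. Same-numbered deviations correlated at -0.10 to 0.10, which cannot show how the mice were handled. With the replicate block 15 probe sets passed, against 64 without it. In that fit 5 of the 34 genes had an unadjusted p under 0.05 (14.7%, against 8.27% of all genes), with Mfap4 among them and Fbln1 not. The count of probe sets past the threshold was 116 without dim probe sets, 117, 16 and 13 with the smooth muscle, fibroblast and heart muscle covariates, 30 without CM-695 mice 2 and 3, and 22 to 98 without 1 mouse. The count of the 34 genes with an unadjusted p under 0.05 was 9 with array weights (26.5%, against 10.6% of all genes in that fit). It was 3 with the fibroblast covariate (8.82%, against 6.49%), all higher (Lox, Thbs1 and Fbln2). It was 10 without CM-695 mice 2 and 3, and 2 to 15 without 1 mouse.

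With the fibroblast covariate, 10 genes were below 0 and the medians turned above 0, at 0.20 for all 34 genes, 0.13 for proteoglycan and 0.29 for matricellular genes (elastic fibre genes also 0.20). So did those of the TGF-beta (0.18), other proteoglycan (0.062), other matricellular (0.26), matrix receptor (0.20), fibroblast (0.054) and smooth muscle (0.33) lists, while the adipocyte list turned below 0 (-0.15). It also turned the sign of 22 genes, none past the threshold: Eln (0.92), Tnc (0.71), Ogn (0.53), Ltbp1 (0.42), Fbln5 (0.40), Emilin1 (0.34), Thbs2 (0.33), Mgp (0.30), Fn1, Ltbp3 and Ltbp4 (0.29 each), Fbln2 (0.27), Loxl1 (0.25), Fmod (0.22), Mfap5 (0.20), Bgn (0.19), Postn (0.12), Lum (0.077), Mfap2 (0.074), Efemp1 (0.033), Ltbp2 (0.018) and Fbn2 (-0.019). The smooth muscle covariate turned 7: Eln (0.33), Ltbp4 and Tnc (0.15 each), Ogn (0.11), Emilin1 (0.092), Ltbp3 (0.064) and Fmod (0.029). The heart muscle covariate turned Lox (-0.31), Loxl4 (-0.19), Fbn2 (-0.064) and Thbs1 (-0.061), repeated quantile normalization Eln (0.00301) and Ltbp4 (0.00720), and leaving out CM-695 mice 2 and 3 Efemp1 (0.21) and Fbn2 (-0.0021). The cause was not tested.

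Without 1 mouse, 12 genes changed sign in at least 1 fit. Their differences ran from -0.36 to 0.26 for Eln, -0.019 to 0.035 for Fbn2, -0.26 to 0.14 for Efemp1, -0.20 to 0.044 for Emilin1, -0.080 to 0.29 for Lox, -0.039 to 0.092 for Loxl4, -0.22 to 0.015 for Ltbp3, -0.20 to 0.080 for Ltbp4, -0.15 to 0.065 for Fmod, -0.31 to 0.070 for Ogn, -0.34 to 0.090 for Tnc and -0.093 to 0.17 for Thbs1.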
